A study of Mus musculus with 2 samples.

Results

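The 10 genes described here encode the transcription factor NRF2 (Nfe2l2) and 9 proteins of the oxidative stress response that it controls or that feeds back on it. They are Sqstm1, the glutathione genes Gclc, Gclm and Gsr, the thioredoxin and peroxiredoxin genes Txnrd1, Srxn1 and Prdx1, and the quinone and heme enzymes Nqo1 and Hmox1. They were chosen by symbol, with earlier results of these data known, and all 10 were present among the 32285 genes of the count matrices. They were measured by scRNA-seq in dendritic cells (DC) of the mouse spleen, to ask in which classes of cells each gene was detected and where its level differed between WT mice and mice without MHC class II on their cells.

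NRF2 is held at a low level in resting cells by the adaptor KEAP1, which presents it to a CUL3 ubiquitin ligase. Oxidants and electrophiles modify KEAP1, and the selective autophagy receptor p62, encoded by Sqstm1, can sequester it, after which NRF2 accumulates, pairs with a small MAF protein and binds antioxidant response elements in DNA. Because NRF2 is regulated mainly as a protein, the mRNA of Nfe2l2 is not a measure of its activity, and the mRNAs of its targets are read for that purpose. In myeloid cells the pathway is best known for the handling of heme and iron by macrophages and for limiting inflammatory responses.

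The WT library was made from mice of genotype H2-Aa +/+ and the mutant library from H2-Aa cit/cit mice, called H2-Aa deficient below, in which the citation allele, a splice mutation described by the study as effectively null, removes an MHC class II alpha chain from every cell of the animal. Both groups were naive. Each library held DC pooled from 3 female mice aged 4 months, enriched with CD11c beads and sorted as live CD45.2+ CD11c+ cells, and which mouse a cell came from is unknown. With 1 library per genotype there was no replicate error, so no test between genotypes was possible, and every interval given is a 95% interval that covers counting error only. A difference between the libraries cannot be told apart from a difference between pools, sorts or library preparations.

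The WT library held 7814 cells with 51020804 UMIs (median 5492 UMIs per cell), and the H2-Aa deficient library 11525 cells with 72652201 UMIs (median 5633). H2-Aa itself was at 5410 UMIs per 1000000 UMIs of the cells summed (CPM) in WT cells, against 66.2 CPM in the deficient library, in the direction of the labels. The median share of UMIs from ribosomal protein genes was 11.2% in WT and 16.5% in H2-Aa deficient cells, and 31 cell barcodes occurred in both libraries. Cells were sorted into classes by counting how many genes of marker lists had a UMI, and 11 classes held at least 50 cells in each library. Most cells of the CD11c sort carried DC markers, but 90 WT and 61 H2-Aa deficient cells passed a macrophage gate and 31 and 23 an NK gate. Leading genes were ranked with both libraries summed. The low-ribosomal cDC2 class had none of the cDC2 markers among its 10 leading genes. The class called mature DC with cDC1 markers was led by Mab21l3, Gclc, Laptm4b and Il12b rather than by its own markers. In that class the WT library gave 3921254 UMIs and the H2-Aa deficient library 819549, so its ranking mostly describes WT cells. Both names describe a gate and not a cell type.

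Antioxidant response elements share the core TGACNNNGC, and this 9-base motif was searched on both strands of the 250 bases before each annotated start in the RefSeq promoter windows (GRCm38.p6). Windows were at hand for 7 of the 10 genes, not for Gclc, Gsr and Hmox1, and 4 of the 7 held the motif before a start. Counted by window, it was 4 of 9. The same motif was present in 10.2% of all 32851 windows. A match describes the letters of the window and not a bound site, and the match in Prdx1 also contains TGAGTCA, the letters of an AP-1 site. The matches are printed with flanking bases, 5′ to 3′ on the strand of the gene, with the motif or its reverse complement in capitals. These promoters were printed because they held the motif.
Nfe2l2, chr2:75704870-75704913, minus strand, motif starting 240 bases before the start: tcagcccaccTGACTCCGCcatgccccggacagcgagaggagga
Gclm, chr3:122245398-122245456, plus strand, 134 bases before the start: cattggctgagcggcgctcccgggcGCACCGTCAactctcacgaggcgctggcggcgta
Prdx1, chr4:116685441-116685499, plus strand, 133 bases before the start: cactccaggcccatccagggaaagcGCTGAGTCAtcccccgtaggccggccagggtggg
Txnrd1, chr10:82859089-82859147, plus strand, 92 bases before the start: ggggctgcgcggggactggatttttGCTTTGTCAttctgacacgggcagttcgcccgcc

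The windows of Sqstm1, Nqo1 and Srxn1 did not hold these letters before the start, and Txnrd1 held them in 1 of its 3 windows.

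Summed over all cells, 8 of the 10 genes had at least 10 CPM in either library, and 1 of these 8 lay past 1.5-fold between the libraries. Gclc was lower in H2-Aa deficient cells and none of the 8 was higher, where 7.42% of 8829 genes tested were past 1.5-fold lower and 3.61% higher. Nqo1 and Srxn1 did not reach 10 CPM in any of the 11 classes and are not in these counts. In cDC1, 3 genes (Sqstm1, Nfe2l2 and Hmox1) were higher and Gclc was lower, against 9.56% of tested genes higher and 8.03% lower. In proliferating cells with cDC1 markers the same 3 genes were higher, against a background of 11.6% of tested genes higher and 8.72% lower. The Hmox1 value there rested on single cells, with 14 of 16 WT and 22 of 41 H2-Aa deficient UMIs in 1 cell each.

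None of the 7 genes that reached 10 CPM was past 1.5-fold in either direction in cDC2 (background 2.35% higher and 1.72% lower), in Ccr2+ cDC2 (6.82% and 6.31%) or in low-ribosomal cDC2 (3.83% and 2.79%). In mature DC, which express Ccr7 and Fscn1, Gclc and Gclm were lower and none was higher (3.67% lower and 5.37% higher in the background). In mature DC with cDC1 markers, Gclc, Gsr and Sqstm1 were lower and Hmox1 was higher, but there 16.0% of all tested genes were lower and 37.4% higher, in a class of 290 WT and 53 H2-Aa deficient cells. In all mature DC taken as a single population, Gclc, Gclm and Sqstm1 were lower (background 5.1%) and Hmox1 was higher (8.86%), but 97 of the 124 Hmox1 UMIs of the H2-Aa deficient library there were in 1 cell.

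The smaller classes gave calls on few UMIs. In proliferating cells outside the cDC1 gate, Nfe2l2 was the only one of 7 genes past 1.5-fold, and it was higher (4.4% higher and 4.65% lower in the background). In pDC, Txnrd1 was higher on 14 and 19 UMIs (8.65%) and Gclm lower on 35 and 19 UMIs (9.06%). In monocyte-like cells, Gclm with 4 and 10 UMIs and Hmox1 with 16 and 43 UMIs were higher (13.3%), and 26 of the 43 Hmox1 UMIs were in 1 cell. In macrophages, Gclm was higher on 12 and 13 UMIs (22.8%) and Nfe2l2 lower (22.5%).

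**Figure D1:**
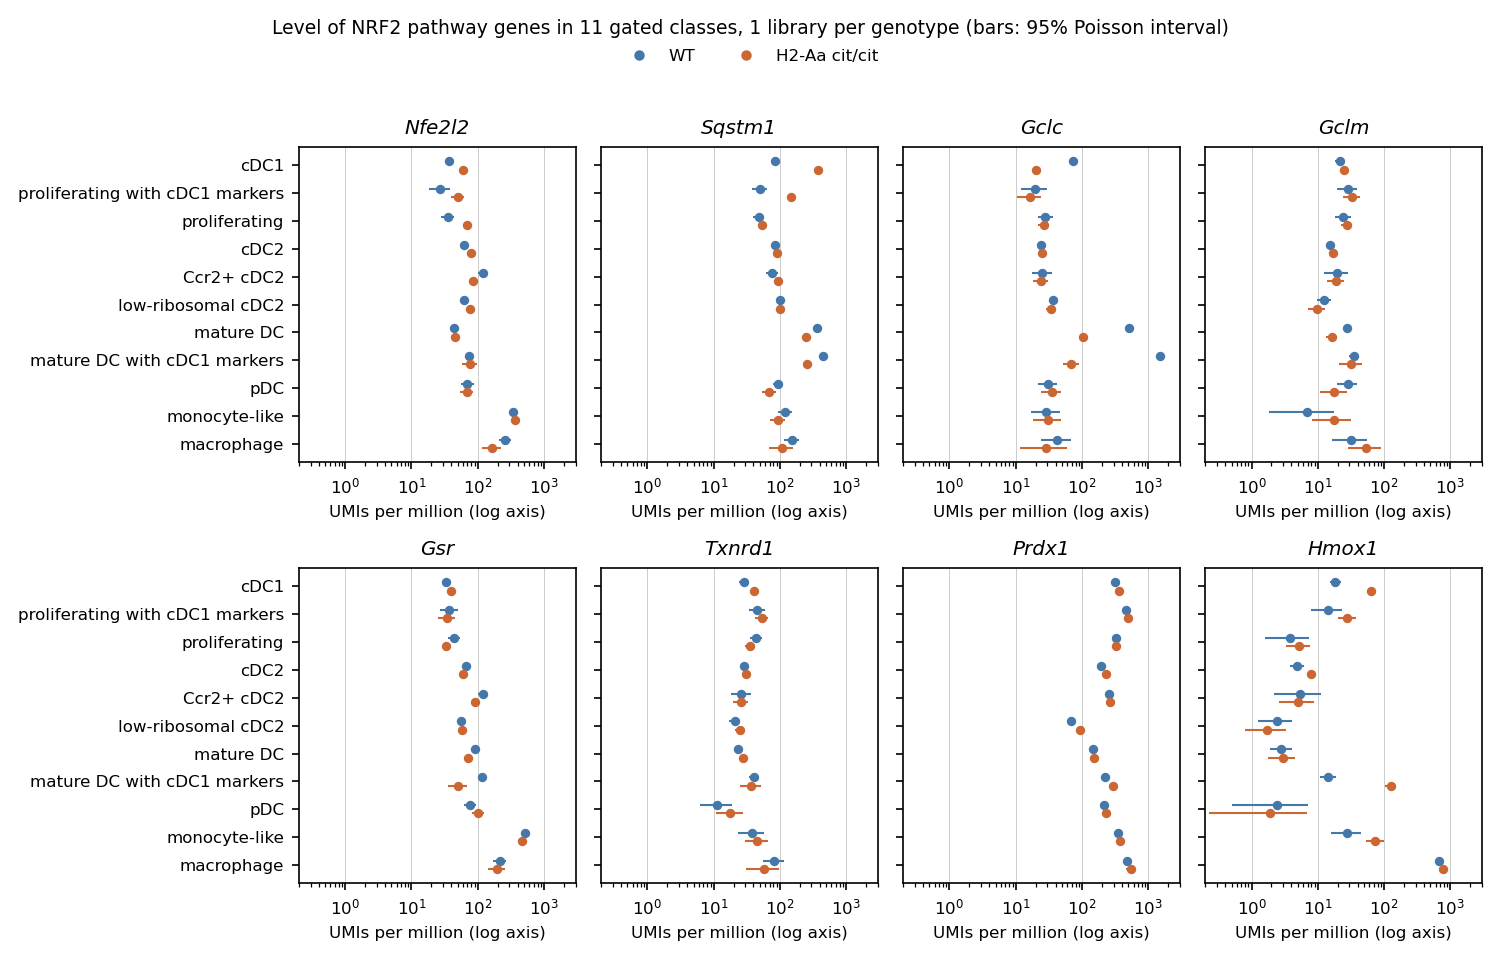
Level of 8 genes (CPM, log axis) in 11 gated classes, with WT in blue and H2-Aa cit/cit in orange; points are summed UMIs of 1 library and bars 95% Poisson intervals. The libraries lie apart for Gclc in both mature DC classes (506 against 102 CPM, and 1495 against 68.3 CPM) and for Sqstm1 in cDC1 (84.5 and 378 CPM), while Prdx1 is similar in each class.

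Nfe2l2 (chromosome 2, 75675513-75704641, minus strand) encodes NRF2 and was detected in every class. Its level was highest in monocyte-like cells, marked by Ace and Fabp4, at 345 CPM in WT (interval 299 to 397) and 362 CPM in H2-Aa deficient cells (315 to 415). Macrophages followed with 258 and 163 CPM, and Ccr2+ cDC2 with 119 and 84.4 CPM. The other DC classes lay below these, so that of the 11 classes the monocyte and macrophage ones held the highest Nfe2l2 levels in both libraries. In WT the intervals of monocyte-like cells and macrophages overlapped, and in H2-Aa deficient cells they did not.

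Between the libraries, Nfe2l2 was higher in H2-Aa deficient cells in cDC1 and in both proliferating classes. In cDC1 it was at 36.6 CPM in WT (204 UMIs in 497 cells) and 60.6 CPM in H2-Aa deficient cells (519 UMIs in 591 cells), a log2 ratio of 0.73 (0.49 to 0.97). In proliferating cells the levels were 35.1 and 69.4 CPM (log2 ratio 0.98, 0.62 to 1.36), and in proliferating cells with cDC1 markers 27.2 and 50.1 CPM (0.88, 0.26 to 1.54). In cDC2 the ratio was smaller, at 62.2 and 78.7 CPM (0.34), and in mature DC the interval of the ratio included 0. In Ccr2+ cDC2 the level was lower in H2-Aa deficient cells, though within 1.5-fold. It was at 119 CPM in WT (101 to 139) and 84.4 CPM in H2-Aa deficient cells (73.1 to 96.8). The WT value in cDC1 was not even over the gate. Cells with exactly 4 cDC1 markers, the minimum of the gate, had 98.7 and 96.2 CPM, while cells with 5 to 9 markers had 24.3 to 39.8 CPM in WT and 45.0 to 65.0 CPM in H2-Aa deficient cells. In cDC1 with no macrophage marker the levels were 29.4 and 58.6 CPM, a log2 ratio of 1.0.

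After thinning each cell to 1500 UMIs, 4.67% of WT cDC1 (interval 2.98 to 6.92) and 7.99% of H2-Aa deficient cDC1 (5.93 to 10.5) had a Nfe2l2 UMI, and these intervals overlapped. Unthinned shares were 23.3% and 50.4%, with median depths of 9726 and 14530 UMIs per cell.

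Sqstm1 (chromosome 11, 50199366-50210827, minus strand) encodes p62, which binds ubiquitinated cargo and KEAP1 and is itself a target of NRF2. In cDC1 it had the largest ratio of the 10 genes on the higher side. WT cDC1 had 84.5 CPM (471 UMIs, interval 77.1 to 92.5) and H2-Aa deficient cDC1 378 CPM (3240 UMIs, 366 to 392), a 4.48-fold difference with a log2 ratio of 2.16 (2.02 to 2.31). In WT, cDC1 were close to cDC2 (83.5 CPM). In H2-Aa deficient cells, cDC1 had the highest Sqstm1 level of the 11 classes, above both mature DC classes, with intervals that did not overlap.

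The higher Sqstm1 level was spread over the cells of the cDC1 class. A UMI was absent from 250 of 497 WT and 96 of 591 H2-Aa deficient cDC1, and the top 10% of cells held 43.9% and 37.3% of the UMIs. At equal depth of 1500 UMIs, 12.0% of WT (9.24 to 15.2) and 37.8% of H2-Aa deficient cDC1 (33.8 to 41.8) had a UMI, against 10.9% and 12.1% of cDC2. Across cells with 4, 5, 6, 7, 8 and 9 cDC1 markers, H2-Aa deficient cells had the higher level at every step, with log2 ratios from 1.08 (9 markers) to 2.61 (6 markers). In the cDC1 with no marker of mature DC the levels were 75.9 and 373 CPM, and in those with no macrophage marker 76.7 and 373 CPM. Markers of mature DC, a class rich in Sqstm1, summed to 578 CPM over WT cDC1 and to 126 CPM over H2-Aa deficient cDC1, and their part in the Sqstm1 difference was not tested.

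**Figure D2:**
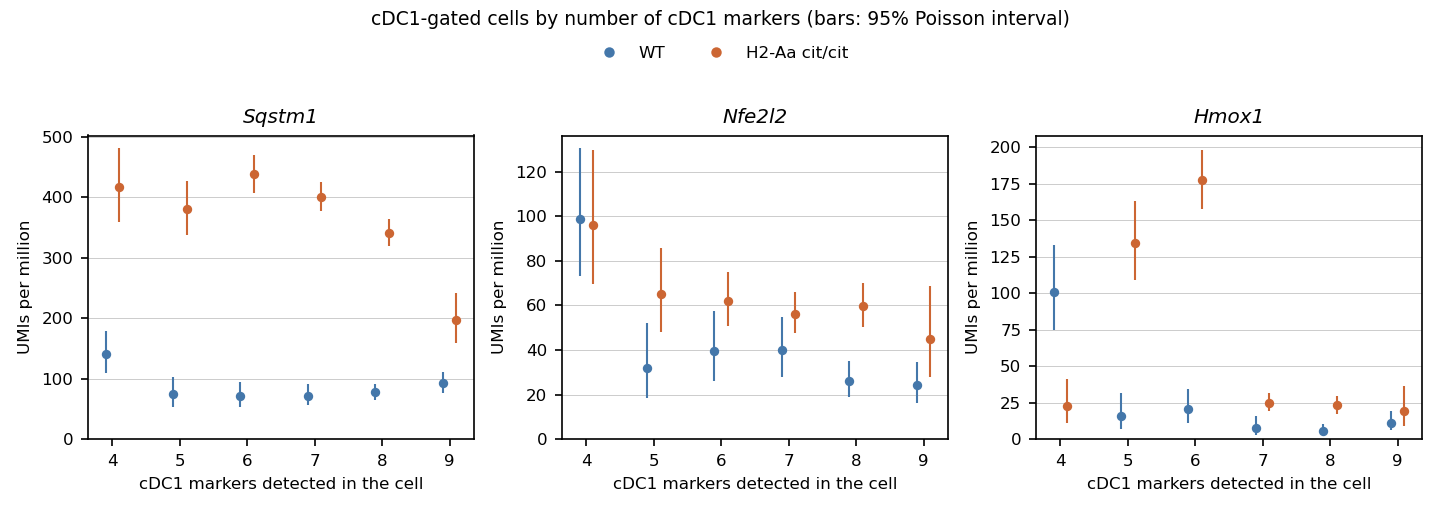
Level of Sqstm1, Nfe2l2 and Hmox1 (CPM) in cDC1-gated cells by the number of cDC1 markers detected, WT in blue and H2-Aa cit/cit in orange, bars 95% Poisson intervals. Sqstm1 is higher in H2-Aa cit/cit cells at every number of markers, whereas Hmox1 is high at 5 and 6 markers in H2-Aa cit/cit cells (134 and 177 CPM) and at 4 markers in WT (101 CPM).

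The proliferating class with cDC1 genes differed in the same direction, and the mature classes in the opposite one. In proliferating cells with cDC1 markers Sqstm1 was at 50.01 CPM in the WT library and 145 CPM in the H2-Aa deficient library (log2 ratio 1.53, 1.11 to 1.98). There the top 10% of cells held 31.6% of the WT and 50.5% of the H2-Aa deficient UMIs, with 27 of the latter 214 in 1 cell. In proliferating cells without cDC1 markers Sqstm1 was at 47.8 and 54.6 CPM (0.19, -0.15 to 0.54). In cDC2 it was at 83.5 and 90.4 CPM (0.11) and in low-ribosomal cDC2 at 98.9 and 99.6 CPM (0.01). In mature DC it was lower in H2-Aa deficient cells, though within 1.5-fold, at 367 and 249 CPM (-0.56, -0.64 to -0.48). In mature DC with cDC1 markers it was at 454 and 261 CPM (-0.80, -1.01 to -0.59). The size varied within all mature cells. The ratio was -0.17 (-0.39 to 0.04) with 4 mature DC markers, -0.15 (-0.33 to 0.03) with 5 and -0.89 (-1.13 to -0.66) with 8. In mature cells without a cDC1 marker it was -0.3 (-0.39 to -0.2). The part of marker number in the Sqstm1 difference was not tested. Sqstm1 thus stood higher in H2-Aa deficient cDC1 and lower in H2-Aa deficient mature DC that carried some of the same markers.

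**Figure D3:**
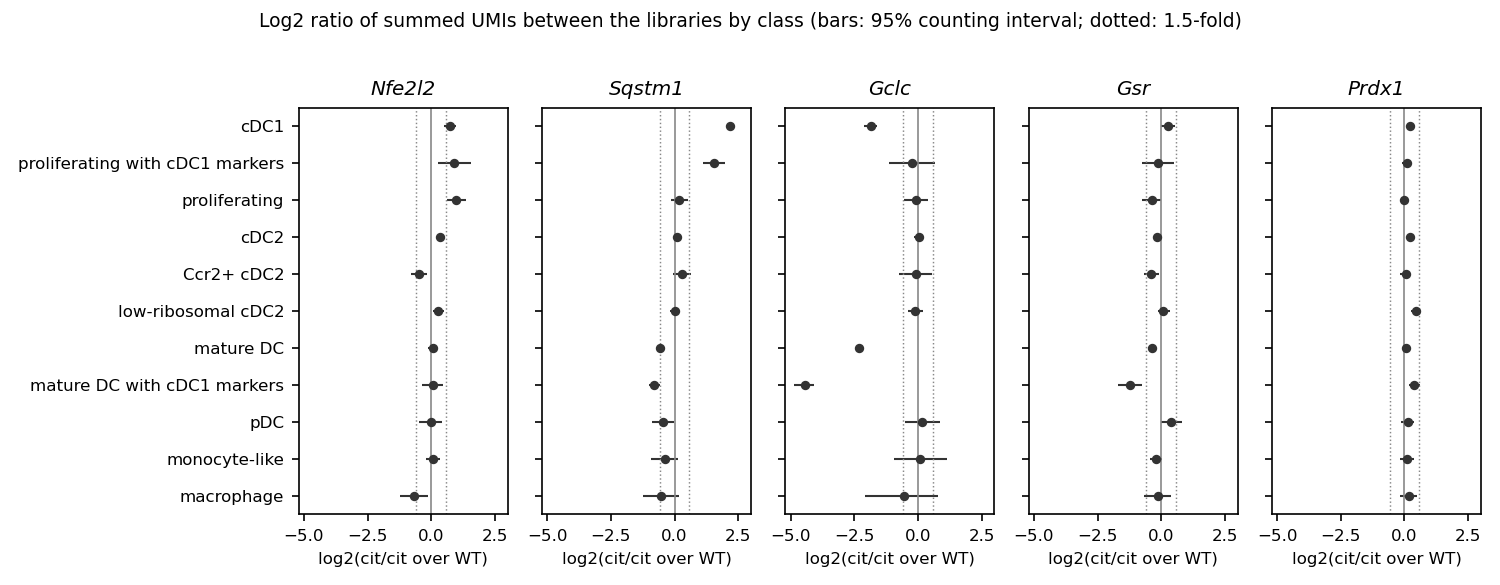
Log2 ratio of H2-Aa cit/cit to WT UMIs (horizontal axis) for 5 genes in 11 classes, with 95% counting intervals; the solid line is no difference and the dotted lines are 1.5-fold. Gclc lies at -2.31 and -4.45 in the mature DC classes and near 0 in the cDC2 classes, Sqstm1 at 2.16 in cDC1, and Prdx1 inside the dotted lines in all 11 classes.

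Gclc (chromosome 9, 77754535-77794485, plus strand) encodes the catalytic subunit of glutamate-cysteine ligase, the rate-limiting enzyme of glutathione synthesis. In WT it was mostly a transcript of mature DC, and both mature classes together held 11404 of the 13020 Gclc UMIs of the library. In H2-Aa deficient cells, they held 754 of 2443 UMIs. The level over all mature DC was 767 CPM in WT (753 to 781) and 98.8 CPM in H2-Aa deficient cells (91.8 to 106), a log2 ratio of -2.96 (-3.07 to -2.85). Over all cells it was 255 and 33.6 CPM (-2.92, -2.99 to -2.86). All mature DC together were 24.2% of WT and 10.4% of H2-Aa deficient cells. With the classes weighted by their WT shares of cells in both libraries, the log2 ratio over all cells was -2.13. This weights classes by cells, whereas -2.92 is a ratio of summed UMIs, so the 2 values differ in more than class shares. As a mean over cells of counts per 10000, with each library at its own class shares, the ratio was -2.30. The part of class shares in the difference was not tested.

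In the other 8 of the 11 classes, Gclc was low in both libraries. In cDC2 it was at 24.5 CPM in WT (22.0 to 27.2) and 25.1 CPM in H2-Aa deficient cells (23.4 to 26.8), a log2 ratio of 0.03 (-0.15 to 0.22). Ccr2+ cDC2, low-ribosomal cDC2, pDC, monocyte-like, macrophage and both proliferating classes had between 16.2 and 42.1 CPM, and the interval of each ratio included 0. The cDC1 class had 74.1 and 20.6 CPM (log2 ratio -1.85), but its WT UMIs were concentrated. The 5 WT cDC1 with the most Gclc UMIs held 71.2% of them, cells at the minimum of 4 cDC1 markers had 597 CPM, and cells with 5 to 9 markers had 16.0 to 28.0 CPM in WT and 18.1 to 29.2 CPM in H2-Aa deficient cells. In cDC1 with no macrophage marker the ratio was -0.20 (-0.55 to 0.17).

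Within the mature DC, the level of Gclc in WT went with the number of cDC1 markers that a cell carried. Mature cells with 0, 1, 2 and 3 or more cDC1 markers had 242, 1115, 1460 and 1525 CPM in WT. The same groups had 95.9, 126, 127 and 31.8 CPM in H2-Aa deficient cells, with the lowest level where WT had the highest. The log2 ratio ran from -1.33 (-1.48 to -1.19) in cells without a cDC1 marker to -5.59 (-6.39 to -4.88) in cells with 3 or more. Depth rose over these groups as well. The median was 6131.5 UMIs per cell with 0 and 15623 with 3 or more cDC1 markers in WT, and 4988 and 19115 in H2-Aa deficient cells. The part of depth in these levels was not tested. Mature DC with at least 2 cDC1 markers, at 1495 and 68.3 CPM, differed by 21.9-fold (5862 and 56 UMIs). The marker levels of this class differed between the libraries as well. Its mature DC markers summed to 5920 CPM in WT (median 8 of 9 per cell) against 1862 CPM (median 5), its cDC2 markers to 192 against 616 CPM and its proliferation markers to 110 against 484 CPM, and whether the class held the same kind of cell in both libraries was not tested. Of these cells, 48.6% of 290 in WT and 3.77% of 53 in the H2-Aa deficient library had at least 8 Gclc UMIs per 10000, and 63 and 30 cells had none.

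Gclc was also higher in WT cells with many mature DC markers, though not at each step. Cells with 4 (the minimum of the gate), 5, 6, 7, 8 and 9 of the 9 markers had 197, 541, 369, 678, 966 and 1839 CPM in WT. H2-Aa deficient cells had 52.3, 86.7, 88.9, 145, 84.8 and 494 CPM, the last in 17 cells. Median depth went from 4249.5 UMIs at 4 markers to 13088 at 9 in WT and from 4543.5 to 7514 in H2-Aa deficient cells. The log2 ratio was between -3.51 (8 markers) and -1.90 (9 markers) at each number from 4 to 9. Cells with 8 and 9 markers were 337 and 140 of 1890 in WT and 84 and 17 of 1197 in the H2-Aa deficient library, and the part of this in the value over all mature DC was not tested.

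Mature cells without a cDC1 marker could be divided further by Sirpa, a marker of cDC2. With a Sirpa UMI, Gclc was at 113 CPM in 662 WT cells and 93.1 CPM in 527 H2-Aa deficient cells (log2 ratio -0.28, -0.49 to -0.08). With no Sirpa UMI it was at 446 CPM in 534 WT cells and 101 CPM in 436 H2-Aa deficient cells (-2.15, -2.37 to -1.94). Among mature cells without a cDC1 marker, the libraries therefore came close to each other where a Sirpa UMI was present. They lay furthest apart in mature cells with cDC1 markers, which were not divided by Sirpa. Sirpa itself was higher there in H2-Aa deficient cells, at 87.4 and 234 CPM with 2 cDC1 markers and 53.8 and 159 CPM with 3 or more.

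Of the genes that led mature DC with cDC1 markers beside Gclc, Mab21l3 and Laptm4b moved with Gclc in these groups and Il12b did so in part. They were picked as leading genes of this same class in these cells, so a likeness to Gclc there was partly built in. Mab21l3 was at 44.5 and 11.6 CPM in mature cells without a cDC1 marker and at 478 and 7.94 CPM in cells with 3 or more. Laptm4b, a lysosomal membrane protein, was at 56.7 and 19.4 CPM and at 406 and 25.8 CPM in the same groups. In the cells with a Sirpa UMI and no cDC1 marker, Laptm4b was at 12.2 and 12.9 CPM and Mab21l3 at 8.96 and 4.50 CPM. Il12b, a subunit of interleukin 12, had log2 ratios of -0.33, -0.31 and 0.32 in mature cells with 0, 1 and 2 cDC1 markers, where Gclc had -1.33, -3.14 and -3.53, and was low in H2-Aa deficient cells (506 and 13.9 CPM) with 3 or more markers. The part of these genes in the Gclc difference was not tested. In summed UMIs, fewer cells of a kind that expresses Gclc and less Gclc per such cell cannot be told apart. Ribosomal share also moved with Gclc, since WT mature cells under 10% ribosomal UMIs had 931 CPM and the others 557 CPM, and the ratios in these groups were -2.79 and -2.83. The summed macrophage markers moved with it too. The 9 markers summed to 159 CPM over WT mature DC with cDC1 markers and to 47.6 CPM over the H2-Aa deficient ones, with 2 and 3 of the 9 at 0, and to 95.3 and 59.9 CPM in the other mature DC, with none at 0. In WT mature cells with 2 and with 3 or more cDC1 markers, C1qa, C1qb, C1qc and Slc40a1 were each at 3.81 CPM or less. The WT sum thus came mainly from the other markers of the list. Without cells that had a macrophage marker, the log2 ratio of Gclc was -2.10 over all mature DC and -1.64 over all cells. The share of mature DC with a Gclc UMI at equal depth was 26.5% in WT (24.5 to 28.5) and 8.78% in H2-Aa deficient cells (7.22 to 10.5), beside 3.91% and 3.79% in cDC2.

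**Figure D4:**
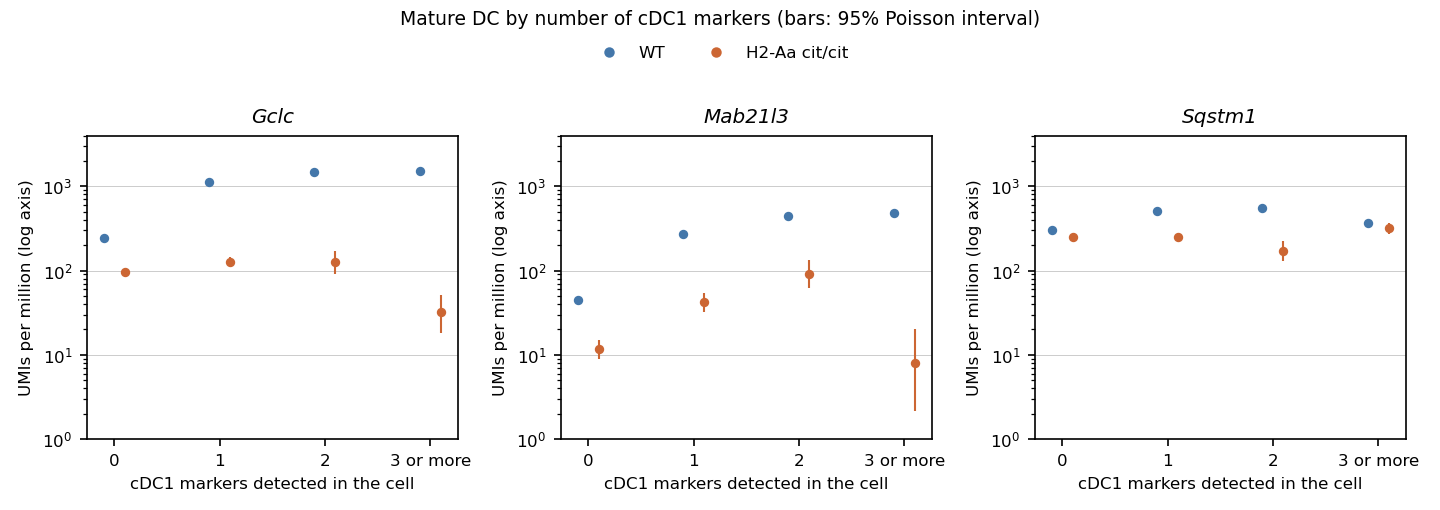
Level of Gclc, Mab21l3 and Sqstm1 (CPM, log axis) in mature DC by the number of cDC1 markers detected, WT in blue and H2-Aa cit/cit in orange, bars 95% Poisson intervals. Gclc increases with cDC1 markers in WT (242 to 1525 CPM) whereas its H2-Aa cit/cit levels over the same groups lie between 31.8 and 127 CPM. Mab21l3, picked as a leading gene of mature DC with cDC1 markers, is likewise high in WT alone at 3 or more markers.

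The genes next to Gclc differed less. Of the 3 other detected genes within 500000 bases that are listed in the annotation, Lrrc1 was at 25.6 and 13.2 CPM in all mature DC (log2 ratio -0.95). Elovl5 was at 42.3 and 51.2 CPM there (0.28) and Fbxo9 at 8.88 and 12.4 CPM (0.49).

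Gclm (chromosome 3, 122245557-122270732, plus strand) encodes the modifier subunit that pairs with the Gclc product. It was detected at a low level in each class, with 6.84 to 35.4 CPM in WT and 9.67 to 53.0 CPM in H2-Aa deficient cells. In mature DC it was lower in H2-Aa deficient cells, at 27.1 and 16.3 CPM (log2 ratio -0.74, -1.06 to -0.42), a smaller difference than that of Gclc in the same cells. In cDC1 it was at 21.7 and 24.6 CPM (0.18) and in cDC2 at 15.3 and 16.8 CPM (0.13), with intervals that included 0. In mature cells without a cDC1 marker the ratio was -0.38, and its interval reached 0.01.

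Gsr (chromosome 8, 33652523-33698163, plus strand) encodes glutathione reductase, which regenerates reduced glutathione with NADPH. Like Nfe2l2, it was highest in monocyte-like cells, with 523 CPM in WT (466 to 585) and 459 CPM in H2-Aa deficient cells (406 to 518), followed by macrophages with 216 and 196 CPM. It was lowest in WT in cDC1 (33.4 CPM) and in H2-Aa deficient cells in proliferating cells (33.8 CPM). The order of the leading classes was thus the same in both libraries. In mature DC with cDC1 markers it was at 116 and 50.03 CPM (log2 ratio -1.21, -1.71 to -0.75), and in mature DC without a cDC1 marker at 74.1 and 66.9 CPM (-0.15, -0.34 to 0.05).

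Prdx1 (chromosome 4, 116685544-116700822, plus strand), a peroxiredoxin that reduces hydrogen peroxide, was the gene whose ratios stayed closest to 0 over the 11 classes. Macrophages (479 and 542 CPM) and proliferating cells with cDC1 markers (461 and 488 CPM) had the highest levels, and low-ribosomal cDC2 the lowest (67.9 and 92.4 CPM). The cDC1 class, at 318 and 364 CPM, lay above cDC2, at 197 and 227 CPM, in both libraries. None of the 11 ratios passed 1.5-fold, and they ran from -0.01 in proliferating cells to 0.45 in low-ribosomal cDC2.

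Txnrd1 (chromosome 10, 82833951-82897712, plus strand) encodes cytosolic thioredoxin reductase. It was highest in macrophages, with 81.6 CPM in WT (55.5 to 116) and 57.0 CPM in H2-Aa deficient cells (31.2 to 95.7), and lowest in pDC. In cDC1 it was at 28.4 and 40.3 CPM (log2 ratio 0.51, 0.23 to 0.79), which did not reach 1.5-fold, and in cDC2 at 28.5 and 30.4 CPM (0.09). All neighbours in the order of classes had overlapping intervals in both libraries.

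Srxn1 (chromosome 2, 152105516-152111376, plus strand) encodes sulfiredoxin, which repairs overoxidized peroxiredoxins. It was sparse, with 145 UMIs in all WT and 84 in all H2-Aa deficient cells. Both mature DC classes together held 116 of the WT UMIs. There it was at 7.80 CPM in the WT library and 2.75 CPM in the H2-Aa deficient library (log2 ratio -1.50, -2.25 to -0.82). In cDC1 the opposite direction was found on 4 and 25 UMIs (0.718 and 2.92 CPM, log2 ratio 2.02, 0.49 to 4.01). These levels were under 10 CPM, so Srxn1 is not among the counts above. The direction of Srxn1 in cDC1 and over all mature DC was that of Sqstm1 in the same cells, but it was not even over mature cells. In mature cells without a cDC1 marker the Srxn1 ratio was -0.63 (-1.66 to 0.32). In those of them with a Sirpa UMI it was 1.37 (-0.19 to 3.09), where Sqstm1 was at -0.22.

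Nqo1 (chromosome 8, 107388225-107403206, minus strand) encodes a quinone reductase that is widely used as a readout of NRF2 activity. It was barely detected, with 30 UMIs in WT and 29 in H2-Aa deficient cells over all cells (0.588 and 0.399 CPM), and at 0 UMIs in pDC and macrophages of both libraries. A count of 0 in macrophages, which had the fewest UMIs of the 11 classes, still allows a level well above that of the other classes (upper limits of 9.71 and 15.0 CPM). No difference in Nqo1 was detectable at this depth.

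Hmox1 (chromosome 8, 75093621-75100589, plus strand) encodes heme oxygenase 1, which degrades heme to biliverdin, iron and carbon monoxide and is abundant in macrophages that clear red blood cells. Macrophages had 669 CPM in WT (589 to 756) and 770 CPM in H2-Aa deficient cells (664 to 888), with a log2 ratio of 0.20 (-0.08 to 0.48). The next of the 11 classes was monocyte-like cells in WT, at 27.4 CPM, and mature DC with cDC1 markers in the H2-Aa deficient library, at 127 CPM. Macrophages held 254 of the 736 Hmox1 UMIs of the WT library and 189 of the 1385 of the H2-Aa deficient one, where cDC1 held 548 and cDC2 274. In mature DC, pDC and the cDC2 classes it was at 1.74 to 7.85 CPM.

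In cDC1, Hmox1 was at 18.5 CPM in WT (103 UMIs) and 64.0 CPM in H2-Aa deficient cells (548 UMIs), a log2 ratio of 1.79 (1.49 to 2.11), but a few cells carried most of it. In H2-Aa deficient cDC1, 6 of 591 cells held 63.3% of the UMIs, and a cell with 108 UMIs stood at the top. Without the 5 WT and 8 H2-Aa deficient cells at or above 8 Hmox1 UMIs per 10000, the levels were 9.23 and 20.4 CPM (log2 ratio 1.15, 0.69 to 1.63). At 1500 UMIs per cell, 2.03% and 4.25% of cDC1 had a UMI, with overlapping intervals. The 8 H2-Aa deficient cells had 0 UMIs of C1qa, C1qb and C1qc, 4 of Slc40a1 and 1349 CPM of Sqstm1. The 5 WT cells had 2 UMIs of C1qa, 0 of C1qb, 1 of C1qc and 10 of Slc40a1, with 528 CPM of Sqstm1. They also held 269 of the 413 Gclc UMIs and 27 of the 204 Nfe2l2 UMIs of WT cDC1. Of genes leading mature DC with cDC1 markers, the 5 WT cells had 24 UMIs of Mab21l3, 13 of Laptm4b and 7 of Il12b. The 8 H2-Aa deficient cells had 0, 11 and 0 of these, and 7 of Nfe2l2. Macrophage markers in the whole class summed to 21.2 CPM over WT cDC1 and to 9.81 CPM over H2-Aa deficient cDC1, with 1 of 9 markers at 0 in each. Without the 5% of cells with the most UMIs the log2 ratio in cDC1 was 0.52.

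The Hmox1 difference in mature DC with cDC1 markers, at 14.3 and 127 CPM (56 and 104 UMIs), rested on a lone cell, since 97 of the 104 UMIs were in 1 of 53 H2-Aa deficient cells. Its direction turned when a further marker was asked for in each gate (log2 ratio -0.79). In mature DC outside the cDC1 gate the levels were 2.83 and 2.93 CPM.

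Another 52 genes of the NRF2 pathway were listed by role: regulators, glutathione, thioredoxin and peroxiredoxin, NADPH supply, heme and iron, and others. Over all cells, 41 reached 10 CPM, of which 1 was past 1.5-fold higher and 1 lower (background 3.61% and 7.42%). Txnip, the inhibitor that binds thioredoxin, was at 139 and 218 CPM (log2 ratio 0.66), and Idh1, a cytosolic source of NADPH, at 35.5 and 12.8 CPM (-1.47, -1.59 to -1.36). The next ratios were those of Blvrb (biliverdin reductase B, 0.53) and Bach2 (a repressor of the same DNA elements, 0.44) on the higher side and Abcc1 (a glutathione conjugate exporter, -0.41) and Slc7a11 (the cystine transporter, -0.33) on the lower side. These sums pool classes whose shares differed between the libraries, and the part of that in the ratios was not tested. Slc7a11 was past 1.5-fold lower in none of the 11 classes. It was past 1.5-fold higher in low-ribosomal cDC2 (0.67), mature DC with cDC1 markers (1.23) and macrophages (0.63). The shares of all tested genes higher in these classes were 3.83%, 37.4% and 22.8%. The median over the list was 0.20, and that over all tested genes was 0.02.

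In cDC1, 8 of 40 tested pathway genes were higher and 1 was lower (background 9.56% and 8.03%), with a median of 0.23 beside -0.02 over all genes. Among the regulators, Nfe2l1, a relative of NRF2 that controls proteasome genes, was at 26.2 and 79.7 CPM (log2 ratio 1.60, 1.34 to 1.87) and Mafg, a small MAF partner of NRF2, at 17.4 and 36.6 CPM (1.07). Keap1 was at 29.1 and 41.6 CPM (0.52), within 1.5-fold. Of the glutathione genes, Slc3a2, the chain that brings amino acid transporters to the membrane, was at 79.2 and 201 CPM (1.34), Gsto1 at 48.6 and 86.7 CPM (0.83), and Slc7a11, under the 10 CPM minimum, at 1.08 and 9.70 CPM (6 and 83 UMIs). The stress sensor Sesn2 was at 11.3 and 45.8 CPM (2.02), Blvrb at 9.15 and 20.3 CPM (1.15) and the heme transporter Slc48a1 at 16.2 and 32.1 CPM (0.99). Txnip (0.59) completed the higher genes and Idh1 was the lower one (-1.62). The values of genes other than Idh1, Txnip, Blvrb and Slc7a11 were picked out after they had been seen.

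In all mature DC, 5 of 39 pathway genes were higher and 2 lower (background 8.86% and 5.1%), with a median of 0.11 beside 0.09 over all genes. Txn1, the substrate of Txnrd1, was at 420 and 265 CPM (log2 ratio -0.66) and Idh1 at 87.5 and 49.5 CPM (-0.82). Txnip was at 41.1 and 83.3 CPM (1.02), and Bach2 at 29.9 and 53.8 CPM (0.85). The other higher genes were Blvrb (1.04), G6pdx (0.81) and Txnrd2 (0.77). In cDC2, 1 of 40 was past 1.5-fold, Blvrb (0.60), where 2.35% of all tested genes were higher and 1.72% lower.

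The profiles of the 10 genes over the 22 values (11 classes in both libraries) were compared with those of all genes with a mean of at least 20 CPM. These are descriptions, since the values share libraries and depth. Gclc was most like Mab21l3 (Pearson's r 0.951) and Rnf115 (0.930). Nfe2l2 was most like Fcgr4 (0.936) and Pilra (0.930), both genes of myeloid cells, and Gsr was most like Fgd4 (0.934) and Nfe2l2 itself (0.903). Sqstm1 was most like Nfe2l1 (0.856) and Eml6 (0.849). Hmox1 was most like Slc40a1, the iron exporter of red-pulp macrophages (0.847), and Dhrs1 (0.841), which also led for Txnrd1 (0.819) ahead of Map3k20 (0.771). Slc40a1 is a marker of the macrophage gate, so its likeness to a gene high in that class was partly built in. Prdx1 was most like Ap2m1 (0.925) and Psmd2 (0.923), and Gclm like Mrps7 (0.862) and Ube2l3 (0.841). For the sparse genes they were March5 (0.873) and Il15ra (0.868) for Srxn1 and Mob1a (0.795) and Tiam2 (0.786) for Nqo1.

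Among the 10 genes themselves, the pairs most alike were Nfe2l2 with Gsr (0.90), Srxn1 with Sqstm1 (0.84), Gclc with Srxn1 (0.78) and Txnrd1 with Hmox1 (0.75). The minimum of 20 CPM was not applied to the 10 genes. The pairs with Srxn1 rest on few UMIs, since its mean was 2.04 CPM, under the 10 CPM added before the logarithm. The pair of glutamate-cysteine ligase subunits, Gclc and Gclm, stood at 0.23. The 10 genes thus did not share a profile over the classes, with Nfe2l2 and Gsr leading in monocyte-like cells, Hmox1, Prdx1 and Txnrd1 in macrophages, and Gclc, Gclm, Srxn1 and Sqstm1 in WT mature DC with cDC1 markers. The leading intervals of Gclm and Srxn1 in WT overlapped those of the next class, as did those of Prdx1 and Txnrd1 in macrophages.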

How the data were processed

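The authors deposited unnormalized UMI counts per gene and cell for called cells, which they made with Cell Ranger 5.0.1 against GRCm38. The annotation and the handling of intronic reads are not given in the sources used here, and how mitochondrial filters were applied to the cells deposited is unknown. Counting followed the 3′ kit, so levels depend on reads near the 3′ end and are not per length.

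From these counts, cells were gated by the number of distinct markers detected: 4 of 9 for cDC1, mature DC, proliferating cells and macrophages, 2 of 10 for cDC2, 3 of 5 for Ccr2+ cDC2, 5 of 8 for pDC, 5 of 7 for monocyte-like cells and 3 for NK, T, B, neutrophil and erythroid cells. Mature DC and proliferating cells with at least 2 and 4 cDC1 markers, respectively, formed classes of their own, and cDC2 under 10% ribosomal UMIs were set apart. A gate is a range on a count of markers: 82 WT and 53 H2-Aa cit/cit cDC1, and 269 and 252 mature DC, stood at the minimum. Cells passing gates of more than 1 lineage (42 and 50) were left out, no doublet caller was run, and 1300 and 1743 cells passed no gate. The 10 genes, the marker lists, the list of 52 pathway genes and the groupings were chosen with earlier results of these data known, and the thresholds of the gates were set after the files had been seen.

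UMIs were summed per class and scaled to 1000000 UMIs of the class (CPM). Intervals are exact Poisson for levels, exact conditional binomial for ratios and Clopper-Pearson for shares, at 95%. A gene was called past 1.5-fold if it had at least 10 CPM in either library and UMIs in both. For shares, cells were thinned to 1500 UMIs and shallower cells were left out. Named genes were the 10 members, the 3 highest and 3 lowest pathway ratios over all cells, and for each member the 2 genes with the highest Pearson's r of log2(CPM + 10) over classes. Ratios were also computed on class sums simulated with Poisson counting error alone. These had no spread between cells and so cannot show the effect of UMIs concentrated in a few cells. Positions are from GENCODE vM21 and promoter windows from RefSeq. Python 3.11.15, numpy 2.4.6, scipy 1.17.1, pandas 2.3.3 and matplotlib 3.10.9 were used. Alternatives were other scalings, weights, gates, filters and thresholds.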

Additional observations from a re-analysis of the deposited data

Results flagged for a closer look

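The log2 ratio of Nfe2l2 between H2-Aa deficient and WT cells had opposite signs in different classes, with intervals that excluded 0 on both sides. It was 0.73 in cDC1, 0.98 in proliferating cells and 0.88 in proliferating cells with cDC1 markers, against -0.66 in macrophages (98 and 40 UMIs). With 1 library per genotype the difference between the classes was not tested, and the macrophage value was 0.06 when 1 more marker was asked for in each gate.

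The log2 ratio of Sqstm1 was 2.16 in cDC1 and 1.53 in proliferating cells with cDC1 markers, against -0.80 in mature DC with cDC1 markers. This difference was not tested either. In mature cells with 3 or more cDC1 markers, where 131 WT and 23 H2-Aa deficient cells were compared, the ratio was -0.22 (-0.47 to 0.03).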

How the results depend on the processing

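No paired analysis was possible because each genotype had 1 library, and for the same reason no replicate could be left out. Gclc was lower and Nfe2l2, Sqstm1 and Hmox1 in cDC1 were higher in H2-Aa deficient cells under all alternatives run, with ranges of the log2 ratio of -2.93 to -1.64 for Gclc in all cells, -3.07 to -1.33 for Gclc in all mature DC, 0.62 to 1.27 for Nfe2l2, 1.85 to 2.28 for Sqstm1 and 0.52 to 2.72 for Hmox1. Leaving out cells under 10% ribosomal UMIs, cells with a macrophage marker, or mature cells with any cDC1 marker was chosen after seeing the data.

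For Gclc in all cells the ratio was -2.30 as a mean over cells of counts per 10000, -2.13 with classes weighted by their WT shares, -2.61 without the 5% of cells with the most UMIs, -2.24 without cells under 10% ribosomal UMIs and -1.64 without cells with a macrophage marker. For Gclc in all mature DC it was -3.07 with scaling by the median ratio, -2.61 as a mean over cells, -2.54 with gates on cells thinned to 1500 UMIs, -2.80 without the deepest cells, -2.83 without cells under 10% ribosomal UMIs, -2.10 without cells with a macrophage marker and -1.33 without mature cells with any cDC1 marker. Nfe2l2 in cDC1 was at 0.97 with 1 more marker, 1.27 with thinned gates, 0.98 without cells under 10% ribosomal UMIs and 1.0 without cells with a macrophage marker. Sqstm1 in cDC1 was at 1.85 with gates on the highest marker z-score and 1.96 without the deepest cells. Hmox1 in cDC1 was at 1.27 as a mean over cells, 2.62 with 1 more marker, 0.74 with thinned gates, 0.52 without the deepest cells and 2.72 without cells with a macrophage marker.

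Reversals were found for Hmox1 in all mature DC (-0.09 with 1 more marker, -0.92 by z-score, -0.79 without the deepest cells and -1.32 without cells with a macrophage marker), for Hmox1 in mature DC with cDC1 markers (-0.79, -0.67 and -3.00 with 1 more marker, without the deepest cells and without cells with a macrophage marker), and for Nfe2l2 in macrophages (0.06 with 1 more marker). The causes were not tested. A ratio was counted as moved if it left the 95% counting interval of the main value, so ratios on few UMIs seldom counted. Over the 10 genes and all classes, leaving out cells over 10% mitochondrial UMIs moved none of 120 ratios, scaling by the median ratio 3 of 120 and thinned gates 35 of 96. A mean over cells moved 26 of 120. Leaving out cells under 10% ribosomal UMIs moved 24 of 109, cells with a macrophage marker 21 of 110 and mature cells with any cDC1 marker 9 of 10. Reversals are not in these counts.

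Genes past 1.5-fold numbered 974 in all cells, 1180 in all mature DC and 1428 in cDC1. With a minimum of 50 CPM they were 479, 383 and 597, with no minimum other than a UMI in each library 5551, 5076 and 4889, and past 2-fold 373, 332 and 522. Depth limits Nqo1 and Srxn1 throughout and each gene in the macrophage class.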
